A study of Mus musculus with 7 samples.

Results

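Transcript levels of 10 genes typical of classical monocytes were followed across 7 RNA sequencing libraries of mouse PBMCs (peripheral blood mononuclear cells, mostly lymphocytes with some monocytes). The genes are Ly6c2, Lyz2, Fn1, Vcan, Mpeg1, F13a1, Cd14, Emp1, Sgms2 and Cd33, matched by symbol to 10 of the 45777 rows of the deposited gene table. They were chosen by how they had differed between these same libraries in earlier results, so their differences are given as a description and support nothing further. All libraries came from week 8 of a study of repeated blood collection, and each of the 7 groups had 1 library. The labels name the control group Non, and the collected groups by route: FV (facial vein), RP (retro-orbital plexus, the vessels behind the eye) and TV (tail vein). Each route has a library without ibuprofen, Ibu (-), and a library with ibuprofen, Ibu (+). Ibuprofen is an inhibitor of the cyclooxygenases, the enzymes that start prostaglandin synthesis. The sources used here do not give strain, sex, age, ibuprofen dose, whether a library pooled several animals or how the Non animals were bled.

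Classical monocytes leave the bone marrow under the control of the chemokine receptor Ccr2, circulate briefly and enter inflamed tissue, where they can become macrophages. In mice they carry the Ly6C surface protein and express lysozyme, secreted matrix proteins and receptors for microbial products. A second population, the nonclassical or patrolling monocytes, has low Ly6C, depends on the nuclear receptor Nr4a1 and stays along the vessel wall. Emp1 and Sgms2 are expressed in many cell types besides monocytes, Lyz2 is also a neutrophil gene, and F13a1 is also found in platelets.

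Total counts per library ranged from 47903611 to 63801032, and red cell (erythroid) transcripts took 48.8% to 74.4% of them. Levels are given as CPM, counts put on the size of a common library by TMM scaling, which corrects for the share that a few genes take. The scaling factor ran from 0.553 in TV Ibu (-) to 1.31 in FV Ibu (+). The smallest count of any of the 10 genes was 261, for Emp1 in TV Ibu (+), whose 95% interval from counting error alone (exact Poisson) was 230 to 295. Without replicates no spread within a group can be given. Csf1r and Ccr2, which define monocytes and their classical subset, were present in every library, at 173 to 354 CPM and 135 to 530 CPM. In bulk RNA, fewer monocytes and less RNA per monocyte cannot be told apart.

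The stretch around the transcription start is shown for 6 of the genes, to let the letters be read beside the levels that follow. Sequences are RefSeq's on GRCm38.p6, the assembly that mm10 names, from 250 bases before to 50 after the start, on the gene's strand. They lie at chr10:117282223-117282522 for Lyz2 (minus strand), chr15:75111922-75112221 for the first Ly6c2 start (minus), chr13:89742463-89742762 for Vcan (minus), chr13:37050195-37050494 for the first F13a1 start (minus), chr7:43533122-43533421 for Cd33 (minus) and chr6:135362681-135362980 for the first Emp1 start (plus). The windows of Vcan, Cd33 and Emp1 lie wholly within the span of the gene given below, so their listed starts are not its outermost base. Capitals mark AGGAAG or its reverse complement CTTCCT, the core letters bound by PU.1, a transcription factor that monocytes need, except in Emp1, where they mark the AP-1 letters TGANTCA.
Lyz2: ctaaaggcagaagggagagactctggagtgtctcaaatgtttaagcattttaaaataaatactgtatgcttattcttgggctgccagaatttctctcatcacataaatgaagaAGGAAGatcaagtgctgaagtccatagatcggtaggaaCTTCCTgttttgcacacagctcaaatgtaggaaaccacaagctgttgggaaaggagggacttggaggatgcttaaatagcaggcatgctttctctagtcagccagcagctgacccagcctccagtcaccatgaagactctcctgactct
Ly6c2: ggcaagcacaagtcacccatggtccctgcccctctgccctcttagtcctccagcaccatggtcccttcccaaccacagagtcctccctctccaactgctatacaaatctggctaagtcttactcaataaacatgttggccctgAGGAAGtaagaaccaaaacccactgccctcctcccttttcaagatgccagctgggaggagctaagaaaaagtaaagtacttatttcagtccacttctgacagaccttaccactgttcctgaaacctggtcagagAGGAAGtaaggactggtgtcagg
Vcan: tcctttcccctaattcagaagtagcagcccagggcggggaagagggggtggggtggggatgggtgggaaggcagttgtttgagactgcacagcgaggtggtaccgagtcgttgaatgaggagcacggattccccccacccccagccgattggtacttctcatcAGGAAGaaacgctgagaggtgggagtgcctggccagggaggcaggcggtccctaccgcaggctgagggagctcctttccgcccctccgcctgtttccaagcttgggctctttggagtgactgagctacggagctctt
F13a1: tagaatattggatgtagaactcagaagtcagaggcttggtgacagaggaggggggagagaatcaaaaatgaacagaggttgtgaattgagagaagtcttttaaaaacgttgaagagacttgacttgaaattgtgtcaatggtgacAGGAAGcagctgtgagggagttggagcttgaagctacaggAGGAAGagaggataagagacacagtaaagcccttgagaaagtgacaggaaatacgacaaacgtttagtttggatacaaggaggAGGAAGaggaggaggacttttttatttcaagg
Cd33: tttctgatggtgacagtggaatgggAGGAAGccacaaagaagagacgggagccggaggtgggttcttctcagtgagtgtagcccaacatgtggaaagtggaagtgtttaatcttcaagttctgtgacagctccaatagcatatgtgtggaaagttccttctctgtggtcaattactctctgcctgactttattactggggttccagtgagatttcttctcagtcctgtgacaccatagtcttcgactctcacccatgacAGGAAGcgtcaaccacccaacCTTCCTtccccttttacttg
Emp1: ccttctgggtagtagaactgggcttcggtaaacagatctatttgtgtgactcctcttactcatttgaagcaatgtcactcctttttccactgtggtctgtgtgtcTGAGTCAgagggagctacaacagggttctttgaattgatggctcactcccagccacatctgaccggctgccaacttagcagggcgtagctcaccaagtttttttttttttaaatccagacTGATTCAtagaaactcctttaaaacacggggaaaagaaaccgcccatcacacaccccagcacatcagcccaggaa

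Promoter windows were listed for 8 of the 10 genes, 16 windows in all. The PU.1 letters, read on both strands, were in 10 of these 16 windows and in 6 of the 8 genes (Ly6c2, Lyz2, Vcan, F13a1, Sgms2 and Cd33). They were in 35.4% of all 32851 windows of the same length in the table, and in 38.4% of its genes. Mpeg1 and Emp1 had no match to them. The windows with the PU.1 letters are not all separate, as the 2 Ly6c2 windows overlap and hold the same matches. Sgms2 counts with 6 windows, so the share of windows is not that of independent promoters. AP-1 letters (TGANTCA) were in 3 of the 16 windows, against 7.81% of all windows, and in 2 of the 8 genes (Emp1, and Sgms2 with its 6 windows), against 8.97% of all genes. The C/EBP letters TTGCNNAA (10.8% of all windows) and an NF-kB motif (0.411%) were in no window of the 8 genes. No matches of different motifs overlapped. A match describes letters only, and says nothing about binding.

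Per transcript length, on the deposited TPM scale, Lyz2 was the highest of the 10 genes in all 7 libraries, at 701 to 3364 TPM. Mpeg1 held the second place in 5 libraries, and F13a1 in FV Ibu (-) and TV Ibu (-). Vcan moved in this order from the lowest of the 10 in RP Ibu (-) and RP Ibu (+), at 2.24 and 0.799 TPM, to the seventh in FV Ibu (-), at 40.1 TPM. Sgms2 was the lowest or next to lowest everywhere, at 0.934 to 5.02 TPM. Neighbours in this order have no replicate spread to be set against.

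**Figure D1:**
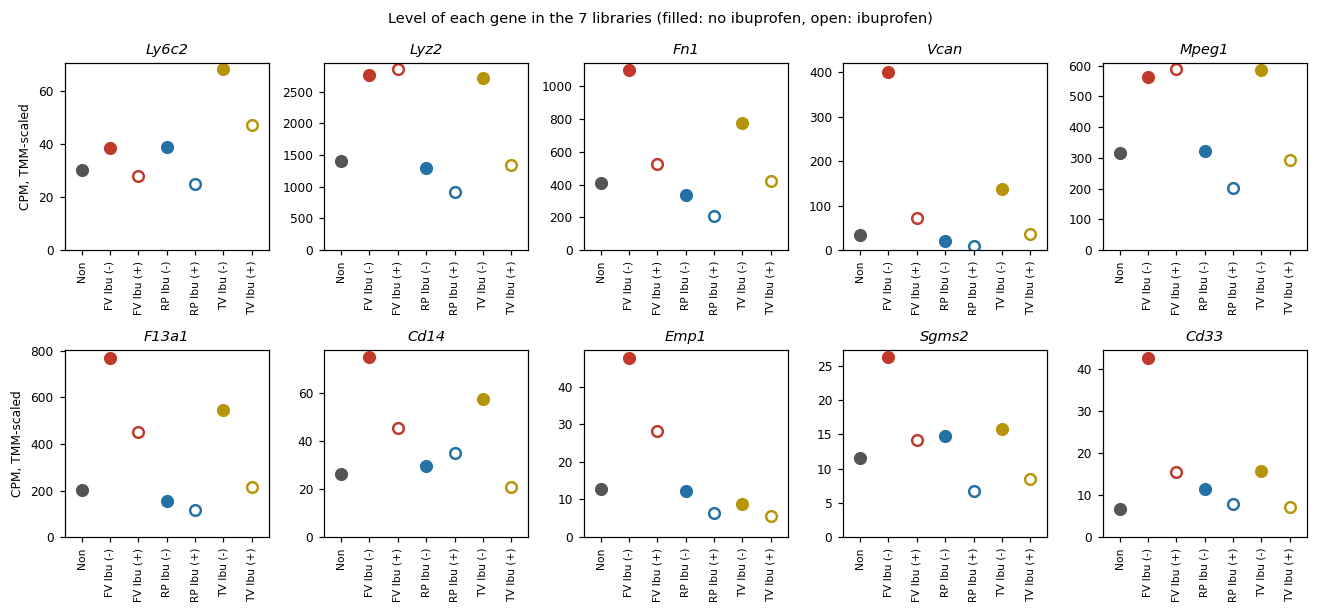
Level of each of the 10 genes in the 7 libraries, as TMM-scaled CPM on a linear axis from 0, with 1 point per library, filled without ibuprofen and open with it. Vcan ranges from 9.54 CPM in RP Ibu (+) to 401 CPM in FV Ibu (-), while Ly6c2 ranges from 25.03 to 68.3 CPM and is highest in TV Ibu (-).

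Ly6c2 (gene ID 100041546; chromosome 15, 75108161 to 75112066) encodes the membrane-anchored Ly6C protein by which classical monocytes are recognised. It was at 30.3 CPM in Non, 38.6 in FV Ibu (-), 27.9 in FV Ibu (+), 38.7 in RP Ibu (-), 25.03 in RP Ibu (+), 68.3 in TV Ibu (-) and 47.2 in TV Ibu (+). Both tail vein libraries were above the other 5, and the lowest library was RP Ibu (+). On the deposited TPM scale the tail vein order did not hold, with 33.9 in TV Ibu (-) against 34.4 in Non, and RP Ibu (-) highest at 50.7. The CPM range of Ly6c2, 2.73-fold, was the narrowest of the 10 genes. Its near copy Ly6c1 is 97.6% identical over 822 aligned transcript bases, and 32.6% of the 50-base windows of the Ly6c2 transcript occur in it unchanged. Ly6c1 had counts worth 14.3% to 55.0% of those of Ly6c2, so the split of reads between both genes, and with it the level of Ly6c2, is uncertain.

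Lyz2 (17105; chromosome 10, 117277541 to 117282272) encodes lysozyme M, which cuts bacterial cell walls. Lyz2 had 1409 CPM in Non, 2763 in FV Ibu (-), 2853 in FV Ibu (+), 1297 in RP Ibu (-), 922 in RP Ibu (+), 2721 in TV Ibu (-) and 1348 in TV Ibu (+). On the CPM scale both FV libraries and TV Ibu (-) formed a high level, and the other 4 libraries a low one. The near copy Lyz1 is 96.0% identical over 1262 aligned bases and had counts of 0.738% to 0.909% of those of Lyz2, with the split of shared reads likewise uncertain. Mpeg1 (17476; chromosome 19, 12460770 to 12465285) encodes perforin-2, a pore-forming protein that attacks engulfed bacteria. It was measured at 316 CPM in Non, 562 in FV Ibu (-), 589 in FV Ibu (+), 321 in RP Ibu (-), 201 in RP Ibu (+), 585 in TV Ibu (-) and 292 in TV Ibu (+). The same 3 libraries were high as for Lyz2, and Mpeg1 counts stayed between 20.3% and 24.8% of Lyz2 counts in every library. On the deposited TPM scale TV Ibu (-) was below Non for both genes. It had 1059 against 1260 for Lyz2 and 55.7 against 69.1 for Mpeg1.

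Fn1 (14268; chromosome 1, 71585473 to 71653280) encodes fibronectin, an adhesive glycoprotein of plasma and matrix. Fn1 levels were 412 CPM in Non, 1099 in FV Ibu (-), 528 in FV Ibu (+), 334 in RP Ibu (-), 208 in RP Ibu (+), 775 in TV Ibu (-) and 422 in TV Ibu (+). On the CPM scale FV Ibu (-) and TV Ibu (-) stood above the rest, and both RP libraries were below Non. On the deposited TPM scale TV Ibu (-) was below Non, at 40.5 against 49.5. Vcan (13003; chromosome 13, 89655309 to 89743027) encodes versican, a large chondroitin sulfate proteoglycan of provisional matrix. Vcan reached 401 CPM in FV Ibu (-) and 138 in TV Ibu (-), against 34.1 in Non, 72.8 in FV Ibu (+), 19.5 in RP Ibu (-), 9.54 in RP Ibu (+) and 37.1 in TV Ibu (+). On the CPM scale the 7 libraries had the same order as for Fn1, but the span was wider, 42.1-fold against 5.28-fold. On the deposited TPM scale the orders differed, and FV Ibu (+) was above TV Ibu (-) for both genes. F13a1 (74145; chromosome 13, 36867178 to 37050244) encodes the A subunit of coagulation factor XIII, the transglutaminase that cross-links fibrin and fibronectin. F13a1 was at 202 CPM in Non, 770 in FV Ibu (-), 450 in FV Ibu (+), 157 in RP Ibu (-), 115 in RP Ibu (+), 546 in TV Ibu (-) and 216 in TV Ibu (+). Platelet transcripts, which can include F13a1, summed to 2188 to 10928 CPM over 29 genes, lowest in RP Ibu (+) and highest in TV Ibu (-). Their part in the F13a1 level was not tested.

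Cd14 (12475; chromosome 18, 36725064 to 36726815) encodes a surface co-receptor that hands bacterial lipopolysaccharide to Toll-like receptor 4. Cd14 stood at 26.4 CPM in Non, 75.2 in FV Ibu (-), 45.4 in FV Ibu (+), 29.6 in RP Ibu (-), 35.1 in RP Ibu (+), 57.5 in TV Ibu (-) and 20.7 in TV Ibu (+). Alone among the 10 genes it was higher in RP Ibu (+) than in RP Ibu (-), an order that was the reverse on the deposited TPM scale. Cd33 (12489; chromosome 7, 43527399 to 43537424) encodes a sialic acid-binding receptor of the Siglec family on myeloid cells. Cd33 had 6.58 CPM in Non, 42.7 in FV Ibu (-), 15.4 in FV Ibu (+), 11.4 in RP Ibu (-), 7.89 in RP Ibu (+), 15.6 in TV Ibu (-) and 7.08 in TV Ibu (+). On the CPM scale Non was the lowest library, a place it took for none of the other 9 genes. On the deposited TPM scale RP Ibu (+), at 2.17, and both TV libraries, at 2.22 and 1.63, were below Non, at 2.34.

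Emp1 (13730; chromosome 6, 135362550 to 135383173) encodes epithelial membrane protein 1, a small protein that spans the membrane several times. Emp1 was found at 12.8 CPM in Non, 47.6 in FV Ibu (-), 28.3 in FV Ibu (+), 12.4 in RP Ibu (-), 6.38 in RP Ibu (+), 8.86 in TV Ibu (-) and 5.74 in TV Ibu (+). Both FV libraries were above the other 5. On the CPM scale both TV libraries were below Non, unlike any other of the 10 genes. On the deposited TPM scale Lyz2, Fn1, Mpeg1, Cd14, Sgms2 and Cd33 were also below Non in both TV libraries. A list of 15 epithelial genes, added after the values were seen, summed to 16.5 CPM in FV Ibu (-) and 10.4 to 12.6 CPM elsewhere. Between 2 and 8 of the 15 were at 0 in a library, Krt15 in all 7, and the highest was the cadherin Cdh1 in each. Their part in the Emp1 level was not tested. Sgms2 (74442; chromosome 3, 131318985 to 131491443) encodes sphingomyelin synthase 2, which makes the membrane lipid sphingomyelin. Sgms2 measured 11.6 CPM in Non, 26.3 in FV Ibu (-), 14.2 in FV Ibu (+), 14.8 in RP Ibu (-), 6.73 in RP Ibu (+), 15.8 in TV Ibu (-) and 8.51 in TV Ibu (+). Within each route the library without ibuprofen was the higher, and FV Ibu (-) was the highest of all.

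**Figure D2:**
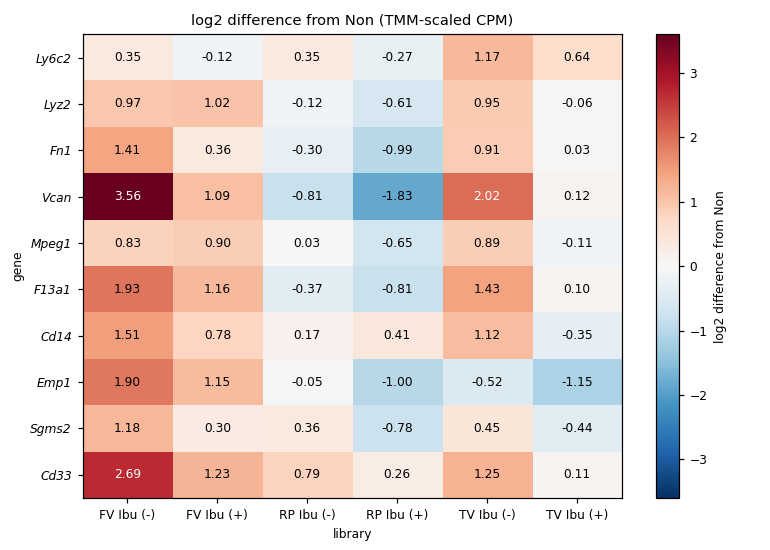
log2 difference of each collected library from Non for the 10 genes, from TMM-scaled CPM with a prior count of 2; red is higher and blue lower than Non. The FV Ibu (-) column is above 0 for all 10 genes, from 0.35 for Ly6c2 to 3.56 for Vcan, and the RP Ibu (+) column is below 0 for 8.

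Against Non, the 10 genes were higher in FV Ibu (-) as a group, near Non in RP Ibu (-), and higher in TV Ibu (-) except for Emp1. The measure is the log2 CPM difference with a prior count of 2, and a gene is past 2-fold when it differs that much and the mean of the pair reaches 10 CPM. In FV Ibu (-), 7 of the 10 were past 2-fold higher and none lower, where 6.01% of the 6156 genes at that mean were higher and 1.67% lower. The 7 were Vcan at 3.56, Cd33 at 2.69, F13a1 at 1.93, Emp1 at 1.90, Cd14 at 1.51, Fn1 at 1.41 and Sgms2 at 1.18. Lyz2 at 0.97, Mpeg1 at 0.83 and Ly6c2 at 0.35 did not pass. The median of the 10 was 1.46, and that of all genes 0.02.

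In RP Ibu (-), none of the 9 genes that reached the mean of 10 CPM was past 2-fold in either direction. Of all genes, 0.215% were higher and 0.198% lower. The values of the 10 lay between -0.81 for Vcan and 0.79 for Cd33, with 5 above 0 and 5 below and a median of -0.01. In TV Ibu (-), 5 of the 10 were past 2-fold higher and none lower, with 9.54% of all genes higher and 1.3% lower. They were Vcan at 2.02, F13a1 at 1.43, Cd33 at 1.25, Ly6c2 at 1.17 and Cd14 at 1.12. Emp1 stood apart at -0.52, and the median of the 10 was 1.04 against 0.00 for all genes. The deposited TPM scale, which leaves in the share of red cell RNA, moved the median of all genes in TV Ibu (-) to -0.93. On it the 10 genes had a median of -0.16, and 7 of them (Ly6c2, Lyz2, Fn1, Mpeg1, Cd14, Sgms2 and Cd33) changed sign. Relative to all genes, 9 of the 10 were above the median on both scales.

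On the CPM scale, most of the 10 genes in FV and TV were nearer to Non in the library with ibuprofen than without it. In RP most were farther away. In FV Ibu (+), 5 of the 10 were past 2-fold higher than Non and none lower, with 5.18% of all genes higher and 0.356% lower. These were Cd33 at 1.23, F13a1 at 1.16, Emp1 at 1.15, Vcan at 1.09 and Lyz2 at 1.02, and the median of the 10 was 0.96. In TV Ibu (+), none of the 8 genes whose pair mean reached 10 CPM was past 2-fold (0.396% of all genes were higher and 0.132% lower). The median of the 10 there was -0.02. Emp1 at -1.15, whose pair mean was below 10 CPM, and Ly6c2 at 0.64 were the outermost. Of the 7 genes at that mean in RP Ibu (+), Vcan at -1.83 was past 2-fold lower and none higher. Of all genes, 0.182% were lower and 0.149% higher. Without regard to the mean, the other 9 of the 10 ran from -0.996 for Emp1 to 0.41 for Cd14. The median over the 10 was -0.71. On the deposited TPM scale all genes had medians of 0.21 in RP Ibu (-), 0.38 in FV Ibu (+), -0.20 in RP Ibu (+) and -0.40 in TV Ibu (+). There the sign changed for Lyz2 and Emp1 in RP Ibu (-), Ly6c2 in FV Ibu (+), Cd33 in RP Ibu (+), and Fn1, Vcan, F13a1 and Cd33 in TV Ibu (+). For TV the nearness to Non did not hold on that scale. All but Vcan and Emp1 were farther from Non with ibuprofen, and the median of the 10 went from -0.16 to -0.47. All 6 of these comparisons share the single Non library.

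The mean of the routes without ibuprofen was set against Non with edgeR's quasi-likelihood test in all 7 libraries, where Non is assumed to vary like the rest. All 10 genes had a fitted log2 difference above 0. The largest were Vcan at 1.62 (standard error 0.42) and Cd33 at 1.59 (0.31), followed by F13a1 at 1.01 (0.32) and Cd14 at 0.98 (0.46). Fn1, Sgms2, Ly6c2, Lyz2 and Mpeg1 lay between 0.60 and 0.67, and Emp1 at 0.44 (0.19). After Benjamini-Hochberg adjustment none of the 10 was called, and 1 of 11804 genes was (0.00847%), the predicted gene Gm38495. At an unadjusted p under 0.05, 6 of the 10 were higher and none lower, beside 4.57% of all genes higher and 3.18% lower. DESeq2 called 17 genes (0.144%), Vcan and Cd33 among them. The edgeR fit called 344 genes (2.93%) without FV Ibu (-) and 107 (0.915%) without FV Ibu (+), Vcan and Cd33 among them in both. The genes were chosen with these differences known, so nothing is read from these calls.

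**Figure D3:**
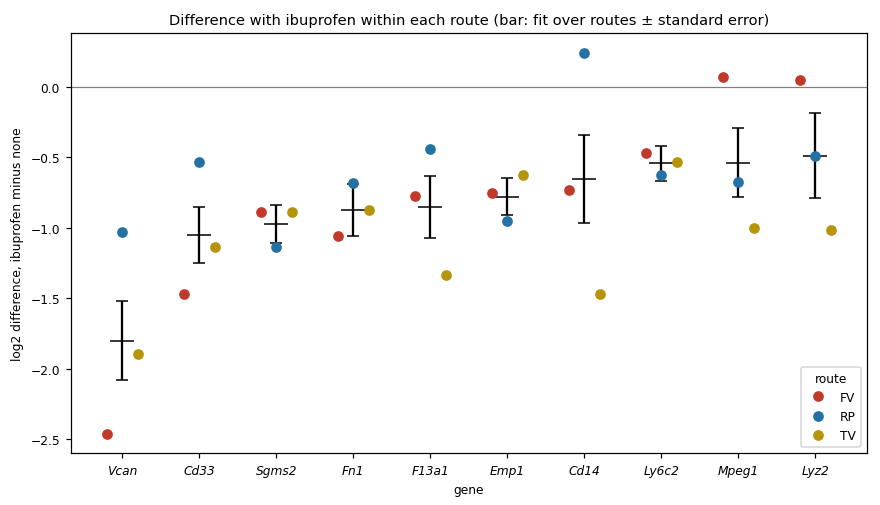
log2 difference between the libraries with and without ibuprofen for each of the 10 genes, with 1 coloured point per route and a black bar for the edgeR fit over the 3 routes ± its standard error. Every fitted value is below 0, from -1.80 for Vcan to -0.49 for Lyz2, and 3 of the 30 points, Lyz2 and Mpeg1 in FV and Cd14 in RP, are above 0.

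Libraries with ibuprofen had lower levels of most of the 10 genes than the libraries of the same route without it. Fitted over the 3 routes, with route as a term, the log2 difference was -1.80 (standard error 0.28) for Vcan, -1.05 (0.20) for Cd33, -0.97 (0.13) for Sgms2 and -0.87 (0.19) for Fn1. F13a1 stood at -0.85 (0.22) and Emp1 at -0.78 (0.13). Cd14 had -0.65 (0.31), Ly6c2 -0.54 (0.12), Mpeg1 -0.54 (0.24) and Lyz2 -0.49 (0.31). Those 4 genes thus had the smaller fitted differences, and for Cd14, Mpeg1 and Lyz2 the routes did not share a direction. The fit left 2 residual degrees of freedom, which come from how far the difference varied between routes, and the standard errors also draw on the spread of all genes, as edgeR moderates it.

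Within FV, 3 of the 10 genes were past 2-fold lower with ibuprofen and none higher, with 1.38% of all genes lower and 0.513% higher. Vcan differed by -2.46, Cd33 by -1.47 and Fn1 by -1.06. Lyz2 stood at 0.05 and Mpeg1 at 0.07, and Lyz2 turned to below 0 when TMM was computed without the erythroid genes. Within RP, where 8 of the 10 reached a pair mean of 10 CPM, Sgms2 at -1.13 and Vcan at -1.03 were past 2-fold lower. None was higher, with 0.545% of all genes lower and 0.347% higher. Within TV, 6 of the 9 genes at that mean were past 2-fold lower and none higher, with 6.03% of all genes lower and 1.17% higher. The 6 were Vcan at -1.90, Cd14 at -1.47, F13a1 at -1.33, Cd33 at -1.14, Lyz2 at -1.01 and Mpeg1 at -1.003. For the 10 genes the median was -0.76 in FV, -0.65 in RP and -1.01 in TV, beside 0.02, -0.04 and -0.03 for all genes. On the deposited TPM scale all genes had medians of 0.26, -0.41 and 0.52, the 10 genes -0.47, -0.99 and -0.28, and Ly6c2 and Emp1 in TV came out above 0. Below the median of all genes were 8 of the 10 in FV, 9 in RP and 10 in TV, on both scales.

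None of the 10 genes, and 0 of 11774 genes (0%), was called for ibuprofen by edgeR's quasi-likelihood test after Benjamini-Hochberg adjustment. At an unadjusted p under 0.05, 7 of the 10 were lower (all but Cd14, Lyz2 and Mpeg1) and none higher, beside 5.57% of all genes lower and 4.99% higher. DESeq2 called 110 genes (0.934%), with 6 of the 10 among them, namely Fn1, Vcan, F13a1, Emp1, Sgms2 and Cd33. limma-voom called 2 genes and none of the 10. Without FV Ibu (-) edgeR called 231 genes (1.98%) and without FV Ibu (+) 228 (1.96%), in both cases with Vcan and Sgms2 among them. Leaving out either FV library rests the ibuprofen fit on RP and TV, as the remaining FV library only sets its own route term. These settings are therefore the same test in effect, with fewer residual degrees of freedom than the 2 of the full fit. Vcan was fitted at -1.46 and Sgms2 at -1.01 in both. Genes of other cells were fitted in the model of the 6 collected libraries, with none called by edgeR. All 20 T cell genes were fitted above 0 (median 0.72), as were all 18 B cell genes (0.40), while all 28 platelet genes tested were below 0 (-0.54) and 16 of 18 neutrophil genes tested were (-0.58). Their part in the lower levels of the 10 genes was not tested. As these genes were chosen with the ibuprofen differences known, the calls are listed and not read as evidence.

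**Figure D4:**
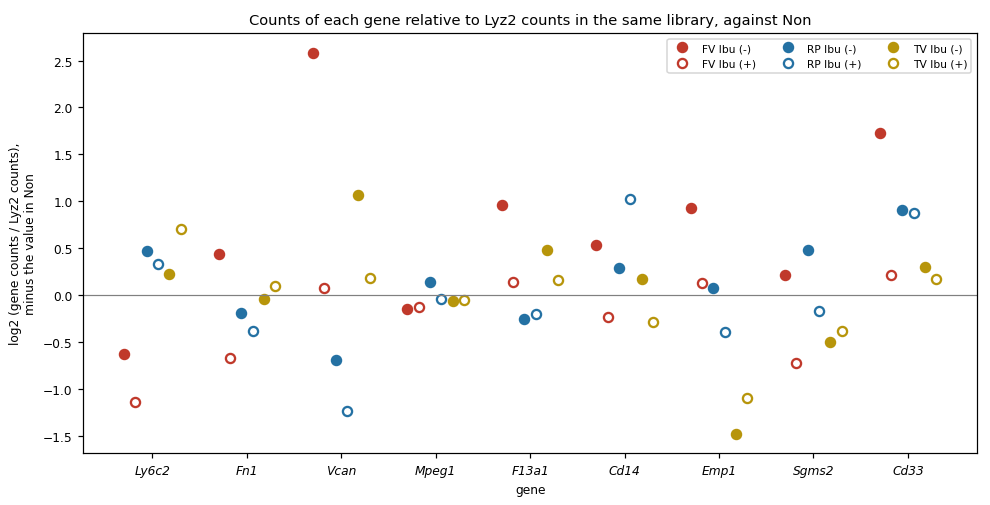
Counts of 9 of the genes relative to Lyz2 counts in the same library, as a log2 ratio minus its value in Non, with 1 point per collected library. Mpeg1 stays within -0.14 and 0.14, while Vcan reaches 2.58 in FV Ibu (-) and -1.23 in RP Ibu (+).

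Ratios of counts within a library do not depend on how libraries are scaled, and they separate the 10 genes from each other. Vcan counts were 2.42% of Lyz2 counts in Non, 14.5% in FV Ibu (-), 2.55% in FV Ibu (+), 1.501% in RP Ibu (-), 1.03% in RP Ibu (+), 5.08% in TV Ibu (-) and 2.75% in TV Ibu (+). In FV the ratio with ibuprofen was thus close to that in Non, while the level of Lyz2 itself was as high as without ibuprofen. F13a1 went from 14.3% in Non to 27.9% in FV Ibu (-) and 15.8% in FV Ibu (+), and from 20.1% in TV Ibu (-) to 16.05% in TV Ibu (+). Cd33 moved from 0.467% in Non to 1.54% in FV Ibu (-) and 0.541% in FV Ibu (+). Fn1 had its highest ratio in FV Ibu (-), 39.8%, and its lowest in FV Ibu (+), 18.5%, with Non at 29.3%. Emp1 had its lowest in the tail vein libraries, 0.326% in TV Ibu (-) and 0.426% in TV Ibu (+), against 0.906% in Non. Ly6c2 had 2.15% in Non, 1.40% in FV Ibu (-) and 0.978% in FV Ibu (+), so its ratio was below Non where that of Vcan was above it. Cd14 was highest in RP Ibu (+), at 3.81%, and lowest in TV Ibu (+), at 1.54%.

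Over the 7 libraries, the log2 CPM of the 45 pairs among the 10 genes had Pearson correlations from -0.20 (Ly6c2 with Emp1) to 0.99 (Fn1 with Vcan, and Lyz2 with Mpeg1), with a median of 0.79. Ly6c2 was the least like the others, at -0.20 to 0.54. Each value rests on 7 points that share the same libraries, scaling and cell mixture, and is a description with no test. Of 5919 other genes whose mean reached 10 CPM, the 10 most like the mean of the standardized members had correlations of 0.992 to 0.995. They were Gpr35, Soat1, Ap1s2, Frrs1, Emilin2, Arl8b, Mtus1, Fcgr3, Ifi207 and App, and 573 genes were above 0.9. Fcgr3 encodes an activating receptor for immunoglobulin G, Soat1 an enzyme that esterifies cholesterol, and App the amyloid precursor protein. By single gene, the nearest was Sik3 for Ly6c2 (0.979), Rnd3 for Lyz2 (0.995) and for Mpeg1 (0.995), Elavl1 for Vcan (0.995), Abcc4 for F13a1 (0.995), Trim30a for Cd14 (0.985), Atxn10 for Emp1 (0.995), Sel1l for Sgms2 (0.990) and Gpr107 for Cd33 (0.992). The nearest to Fn1 was Vcan itself.

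**Figure D5:**
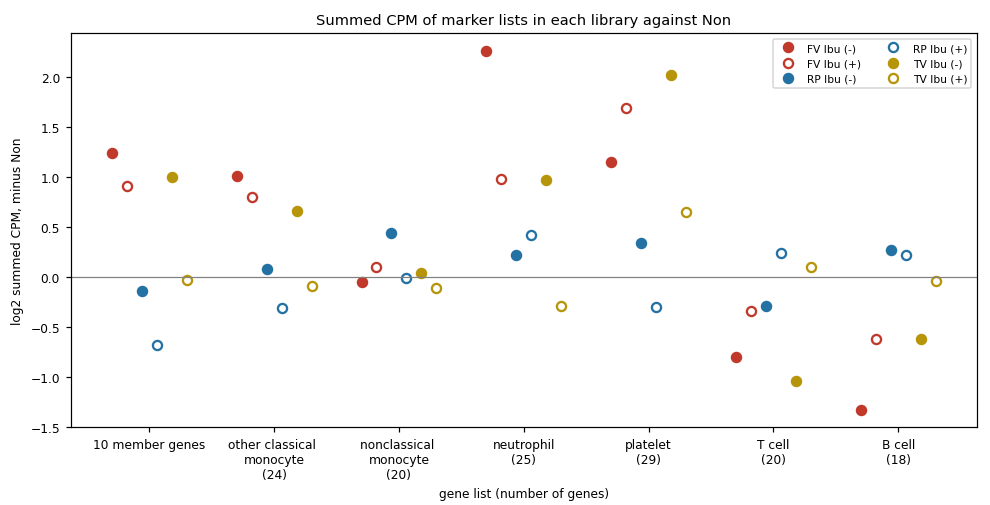
Summed CPM of the 10 genes and of 6 marker lists in each collected library, as log2 minus the value in Non, with 1 point per library. The sums of the 10 genes, of which Lyz2 is the largest part, and of the 24 other classical monocyte genes are highest in FV Ibu (-), FV Ibu (+) and TV Ibu (-). The sum of the nonclassical list is highest in RP Ibu (-).

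On the CPM scale, other markers of classical monocytes had the same 3 highest libraries in their sum as the 10 genes. Their lowest library was also the same, and their span was narrower. Summed over the 10 genes, the level was 2461 CPM in Non, 5825 in FV Ibu (-), 4624 in FV Ibu (+), 2236 in RP Ibu (-), 1538 in RP Ibu (+), 4931 in TV Ibu (-) and 2405 in TV Ibu (+). For the 24 other classical monocyte genes it was 2095, 4204, 3633, 2211, 1689, 3298 and 1967 CPM in the same libraries. Lyz2 was the largest part of the sum of the 10 genes, with 1409 CPM in Non and 2853 in FV Ibu (+). Single genes could differ from the sum, as Ly6c2 was below Non in FV Ibu (+) and Emp1 was below Non in TV Ibu (-). All 24 had a fitted ibuprofen difference below 0, with a median of -0.51, and a fitted difference from Non above 0, with a median of 0.62, beside 0.01 and -0.01 for all genes and with none called. The chemokine receptor Ccr2 was at 191 CPM in Non, 530 in FV Ibu (-), 494 in FV Ibu (+), 135 in RP Ibu (-), 135 in RP Ibu (+), 377 in TV Ibu (-) and 200 in TV Ibu (+). Its 2 FV libraries were thus close, as they were for Lyz2 and Mpeg1 and not for Vcan.

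The 20 nonclassical monocyte genes summed to 1312 to 1917 CPM, highest in RP Ibu (-), with Nr4a1 at 281 CPM and the angiotensin-converting enzyme Ace at 287 CPM in that library. Not all of them peaked there, as Itgal was highest in TV Ibu (-), at 418 CPM against 405 in RP Ibu (-). Klf2 was highest in RP Ibu (+), at 198 CPM, and its 165 CPM in RP Ibu (-) was below the 180 in Non. The 20 genes had a median fitted difference of -0.15 with ibuprofen and 0.18 against Non. Neutrophil genes (25) summed to 300 CPM in Non, 1431 in FV Ibu (-), 589 in FV Ibu (+), 349 in RP Ibu (-), 401 in RP Ibu (+), 586 in TV Ibu (-) and 245 in TV Ibu (+). FV Ibu (-) was thus the highest for neutrophil genes as for 7 of the 10 monocyte genes, and 0 to 2 neutrophil genes were at 0 in a library. S100a8, a neutrophil and monocyte calcium-binding protein gene, reached 241 CPM in FV Ibu (-) against 17.5 in Non. T cell genes (20) summed to 760 CPM in FV Ibu (-) and 644 in TV Ibu (-) against 1325 in Non, and B cell genes (18) to 671 and 1096 against 1684. The part of these other cells in the differences of the 10 genes was not tested.

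The partners of the 10 genes were followed as lists, with no gene called by edgeR in either comparison. Among 14 monocyte transcription factors and growth factor receptors, 14 were fitted below 0 with ibuprofen (median -0.45) and 14 above 0 against Non (0.48). Csf2rb, the shared receptor chain for granulocyte-macrophage colony-stimulating factor, stood at 190 CPM in FV Ibu (-) and 145 in TV Ibu (-), against 63.2 in Non. Of 12 partners of Cd14 in lipopolysaccharide recognition, 10 were below 0 with ibuprofen (median -0.30) and 10 above 0 against Non (0.31). The adaptor Myd88 was at 26.8 CPM in Non and 68.0 in FV Ibu (-), while the kinase Irak1 stayed within 51.6 to 62.0 CPM. Of 12 adhesion receptors for fibronectin and versican 11 were tested, 9 of them below 0 with ibuprofen (-0.33) and 9 above 0 against Non (0.46). Their highest member, the leukocyte integrin chain Itgb2, ran from 266 to 421 CPM.

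Of 20 coagulation genes 6 were tested, 4 of them below 0 with ibuprofen (median -0.42) and 4 above 0 against Non (0.58). F10, which encodes coagulation factor X, was at 8.81 CPM in Non, 54.4 in FV Ibu (-), 24.5 in FV Ibu (+), 7.88 in RP Ibu (-), 6.70 in RP Ibu (+), 29.05 in TV Ibu (-) and 11.7 in TV Ibu (+). On the CPM scale FV Ibu (-) and TV Ibu (-) were its highest libraries, as for F13a1. Among sphingomyelin enzymes, 13 of 16 tested were below 0 with ibuprofen (-0.21) and 12 above 0 against Non (0.22). Smpdl3a, which encodes a phosphodiesterase related to acid sphingomyelinase, was at 81.7 CPM in Non and 160 in FV Ibu (-). Sgms1, the other sphingomyelin synthase, named after its values were seen, lay between 25.6 CPM in TV Ibu (-) and 36.7 CPM in RP Ibu (-), with a fitted ibuprofen difference of 0.17 (standard error 0.14). Of the Siglec family and its adaptors 10 were tested, 6 below 0 with ibuprofen (-0.16) and 6 above 0 against Non (0.29), with the B cell Siglec Cd22 lowest in FV Ibu (-), at 43.3 CPM against 104 in Non.

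Smaller families gave few tested genes. Of 12 Ly6 genes 6 were tested, with 4 below 0 with ibuprofen (median -0.06) and 3 above 0 against Non (0.01), and Ly6e, expressed in many cell types, was the highest at 268 to 438 CPM. Of the 4 relatives of Emp1, Emp3 alone was tested, at 29.2 to 50.7 CPM with FV Ibu (-) highest, and the others stayed below 1 CPM on average. Of 10 lysozyme and pore-forming genes 2 were tested, Lyz1 and the lymphocyte perforin Prf1, which was at 20.04 to 30.01 CPM.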

How the data were processed

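PBMC RNA from 7 mouse libraries, 1 per group, was made into stranded poly(A) mRNA libraries, per the labels' protocols. Trimmomatic 0.38 and HISAT2 2.1.0 were used with mm10, per the submitters' processing notes. The sources used here do not give the counting program, its use of strand or the annotation release. Each library had, in the deposited table, 3 kinds of value. Read counts per gene, as deposited by the authors, were whole numbers without normalization. FPKM values, scaled by the authors for transcript length and depth, were not used in any comparison. TPM values deposited by the authors, which share 1 total in every library, served for the order of levels between genes and as an alternative scale.

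Counts were scaled with TMM and tested with edgeR 4.0.16 (R 4.3.3; glmQLFit after estimateDisp, then glmQLFTest) for every gene whose mean reached 1 CPM, as all 10 members did, with Benjamini-Hochberg adjustment at 0.05 over all genes. Ibuprofen was fitted with route as a term in the 6 collected libraries, and the mean of the routes without ibuprofen against Non in all 7. Standard errors were taken as the log2 fold over the square root of F. Differences within a pair of libraries have no test. The p-values reflect the spread of these libraries alone, namely how far the ibuprofen difference varied between routes. With 1 library per group, differences between routes, between animals and of technical origin cannot be told apart in that spread. Members and gene lists were chosen with earlier results of these data known. All members are named, with at most the 4 highest genes of each other list by mean CPM, the near copies Ly6c1 and Lyz1, and the most correlated genes. Alternatives used DESeq2 1.42.0, limma 3.58.1, other scalings, filters, prior counts and folds, and each library left out in turn. The scripts were checked on simulated data. The lowest chi-square per degree of freedom among 21 pairs of libraries was 28.4, so none was counted as a repeat.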

Additional observations from a re-analysis of the deposited data

Results flagged for a closer look

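On the CPM scale, the routes had differences of opposite sign for 9 of the 10 genes, all but Cd33. This held under at least 1 of 3 contrasts: ibuprofen within a route, and each collected library without or with ibuprofen against Non. On the deposited TPM scale Cd33 had opposite signs too. It was below Non in TV Ibu (-), RP Ibu (+) and TV Ibu (+), and above Non in both FV libraries. Each route has a single pair of libraries, so the difference between routes was not tested in any case.

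With ibuprofen, Lyz2 differed by 0.046 on the log2 scale in FV, against -0.49 in RP and -1.01 in TV. Mpeg1 differed by 0.068 in FV, against -0.67 in RP and -1.003 in TV. Cd14 differed by 0.24 in RP, against -0.73 in FV and -1.47 in TV.

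Without ibuprofen, RP lay below Non where FV and TV lay above it for 4 genes. Lyz2 stood at -0.12 in RP, against 0.97 in FV and 0.95 in TV. Fn1 stood at -0.30 in RP, against 1.41 and 0.91. Vcan stood at -0.81 in RP, against 3.56 and 2.02. F13a1 stood at -0.37 in RP, against 1.93 and 1.43. For Emp1 the facial vein was the route apart, at 1.90 against -0.05 in RP and -0.52 in TV. On the deposited TPM scale the sign of Lyz2 and Emp1 in RP against Non, of Lyz2 and Fn1 in TV against Non and of Cd14 with ibuprofen in RP changed.

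With ibuprofen, the libraries differed in sign against Non for those 9 genes. Ly6c2 stood at 0.64 in TV, against -0.12 in FV and -0.27 in RP. FV was above Non and both other routes below it for Lyz2 (1.02), Mpeg1 (0.90), Emp1 (1.15) and Sgms2 (0.30). RP was below Non and both other routes above it for Fn1 (-0.99), Vcan (-1.83) and F13a1 (-0.81). TV was close to Non for these genes, at 0.03, 0.12 and 0.10. Cd14 was below Non in TV, at -0.35, and above it in FV (0.78) and RP (0.41). On the deposited TPM scale the sign against Non changed for Fn1, Vcan and F13a1 in TV and for Ly6c2 in FV.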

How the results depend on the processing

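All 10 members kept the sign of both fitted differences under every tool, scaling, filter and library left out that was run. In the ibuprofen fit, leaving out either library of a route leaves only the other routes to inform it, so those settings are not separate tests. For ibuprofen, genes called numbered 0 with edgeR, 110 with DESeq2 and 2 with limma-voom, and 0 to 231 with each library left out in turn; members called were 6 with DESeq2 and 0 to 2 with a library left out. Against Non, genes called numbered 1 with edgeR, 17 with DESeq2, and 0 with DESeq2 size factors, without the filter, with 4 libraries, and with Non against all 6; leaving out a library gave 0 to 344, and members called were 2 with DESeq2 and 0 to 2 with a library left out. On deposited TPM, the median of the members became 0.18 in RP Ibu (-) and -0.16 in TV Ibu (-) against Non, both with the opposite sign, and -0.28 for ibuprofen in TV; TPM leaves in the red cell share. Members past 2-fold on TPM numbered 1 in TV Ibu (-) and 3 in RP Ibu (+) against Non, and 4 in RP and 0 in TV with ibuprofen. With DESeq2 size factors, 2 passed in RP Ibu (+) against Non. With a fold of 1.5 against Non, 1 passed in RP Ibu (-), 8 in TV Ibu (-), 5 in RP Ibu (+) and 1 in TV Ibu (+); with ibuprofen, 7 passed in FV and 5 in RP. With no minimum level, 1 passed in TV Ibu (+). In 110 other cases the direction held, with counts within 1.5 times and medians within 1.5-fold on the linear scale; the widest of these moves, on TPM, took the median of TV Ibu (+) against Non from -0.02 to -0.47. Of the values for single members, 274 kept their side of the threshold, 16 passed it only in the alternative (the DESeq2 and left-out-library calls above), and none reversed. The legacy form of edgeR's test, added after seeing the data, called 0 and 1 genes. No paired analysis was possible because the labels give no replicate numbers shared between groups; route was a term of the ibuprofen fit, and without it edgeR called 0 genes. The smallest member count was 261, and each group had 1 library.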
